A study of Arabidopsis thaliana with 6 samples.

Results

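ABC transporter genes are here the nuclear genes, AT1G to AT5G, whose protein match in the deposited annotation names an ABC transporter and which had at least 1 peak assigned to them in any of 4 anti-FLAG ChIP-seq peak lists of Arabidopsis thaliana seedlings. There were 55 such genes of 12573 nuclear genes with a peak. All but 1 of them, 54, carry a subfamily name that equals a RefSeq synonym. The exception is ABC1 (AT4G01660), a mitochondrial protein of the ABC1 kinase family, which meets the rule by its description and is not a membrane transporter. The lists come from 2 ChIP libraries of plants with the transgene pCND1-Flag in the cnd1-3 mutant background, called CND1-FLAG here, and 2 ChIP libraries of untagged Col-0 plants. Each genotype also had 1 input library, and all chromatin was fixed with 1% formaldehyde for 10 minutes. The labels do not give the promoter of the transgene, the number of lines, the age of the seedlings or whether libraries of 1 genotype are separate plants. Spread between libraries may therefore be technical, and DNA recovered from whole seedlings does not show which cells it came from.

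ABC proteins bind and hydrolyse ATP, and most use it to move a substrate across a membrane. In plants they carry waxes and suberin monomers to the surface, hormones such as auxin and abscisic acid out of cells, and conjugated toxins and metal chelates into the vacuole. Subfamilies B, C and G hold most of the full transporters, subfamily I holds transporters and components of bacterial type, and subfamilies E and F are soluble proteins that act with ribosomes. CND1 is named in the series for its part in keeping nuclear and chloroplast genomes stable, and the ChIP asks where on chromatin it is found. Col-0 carries no FLAG tag, so its peaks show what the antibody and the chromatin give without a target. The genotypes differ in tag, transgene and cnd1-3 allele at once, and these cannot be told apart.

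Depth was 84.6 and 75.99 fragments per kb in the ChIP of CND1-FLAG (replicates 1 and 2) and 158 and 155 in that of Col-0, worked out from the deposited fold enrichments and p-values. Peak numbers ran from 5722 to 13044 per list. Fold enrichment, the pile-up of fragments at a summit over its local background, is comparable within a list and not between lists of different depth. Which input library each list was called against is not stated. Where a fold carries an interval, it is the 95% exact Poisson interval of the fragments at the summit over a background taken as fixed, and it covers counting error only.

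ABC genes were met by peaks about as often as other genes, and more of them in the tagged lists than in the Col-0 lists. Among the 127 ABC genes known to RefSeq, 56 had a peak in any list, or 44.1%, beside 41.5% of all 27444 protein-coding nuclear genes. CND1-FLAG replicate 1 had a peak at 40 of the 55 members and replicate 2 at 35, whereas Col-0 replicate 1 had one at 16 and replicate 2 at 28. Both tagged lists reached more members than both Col-0 lists. The means were 37.5 ± 3.54 and 22 ± 8.49 genes (SD, n = 2 each), a difference of 15.5 genes and a ratio of 1.70. An exact permutation test, two-sided, returned p = 0.3333, the smallest value that 2 against 2 libraries allow. Over all nuclear genes with a peak the same ratio was 1.79.

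The lists took 72.7%, 63.6%, 29.1% and 50.9% of the members, in the order CND1-FLAG replicates 1 and 2 and Col-0 replicates 1 and 2. They took 78%, 66.1%, 41.3% and 39% of all nuclear genes with a peak. Col-0 replicate 2 reached more members than replicate 1, although its list reached fewer genes in all, 4899 against 5195. Of the 16 members in Col-0 replicate 1, 13 were also in Col-0 replicate 2, which is 81.25% of the first list and 46.4% of the second (65.6% and 69.5% over all genes). Of the 40 members in CND1-FLAG replicate 1, 27 were also in replicate 2, which is 67.5% and 77.1% (70.9% and 83.7% over all genes).

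**Figure D1:**
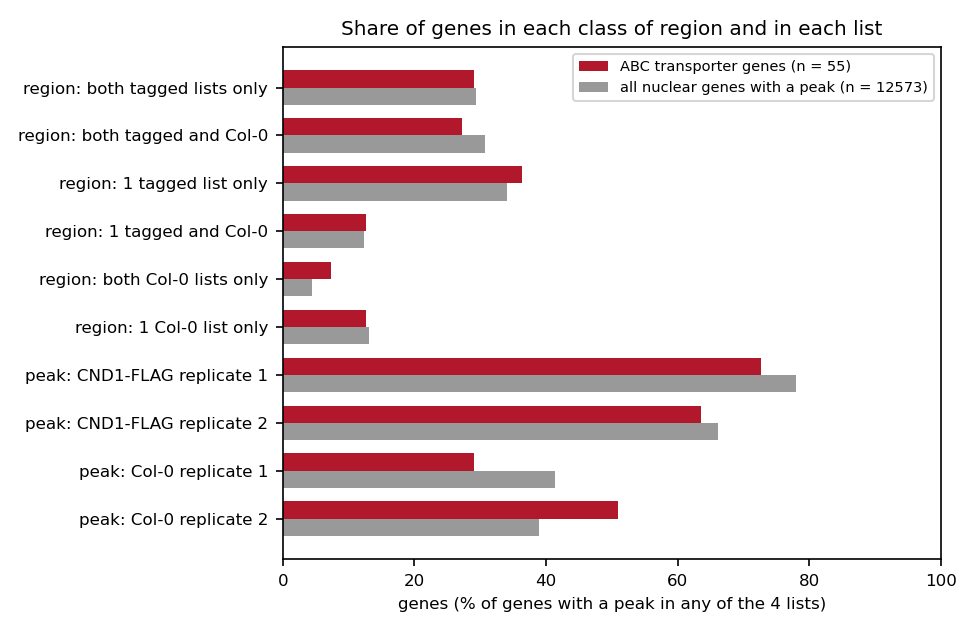
Share of genes with each class of region and with a peak in each list, for the 55 ABC transporter genes and for all 12573 nuclear genes with a peak (horizontal axis, percent of genes). The shares of both sets lie close together for regions of both tagged lists alone (29.1% and 29.3%), and stand furthest apart for the Col-0 lists (29.1% and 41.3% in replicate 1, 50.9% and 39% in replicate 2).

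Peaks that shared at least 1 bp across the 4 lists were merged to regions, 73 of them at the 55 genes. Most members, 43, had 1 region, 8 had 2, and 2 genes each had 3 and 4. Regions held by both CND1-FLAG lists with no Col-0 peak, called tagged-specific, lay at 16 of the 55 members, or 29.1%, beside 29.3% of all nuclear genes with a peak. Regions that both CND1-FLAG lists held together with 1 or 2 Col-0 lists, called shared, lay at 15 members, or 27.3%, beside 30.7%. The reverse class, both Col-0 lists and neither tagged list, held 4 members, or 7.27%, beside 4.47%. Regions of 1 tagged list alone lay at 20 members, or 36.4%, beside 34%. Counting either kind, 29 members, or 52.7%, had a region of both tagged lists, beside 56%, and ABCG36 and ABCE2 had both kinds, or 3.64%, beside 4.01%. Peaks assigned in 1 list alone were found at 16 members, or 29.1%, beside 31.4%, and a region of all 4 lists at 7, or 12.7%, beside 19.3%. No difference between members and all genes was tested. The 16 of 55 became 26 of 50 without CND1-FLAG replicate 2, since 1 tagged list then sufficed, beside 53.7% of all genes. With −log10 q of at least 5 there were 10 of 34 (30.1% of all genes). With fold of at least 2 there were 9 of 23 (33.2%), and in the top 50% of each list 9 of 31 (23.9%). Classing each gene by the lists of all its peaks gave 12 of 55 (23.5%). The 15 became 9 of 52 without Col-0 replicate 2 (26.5% of all genes) and 8 of 55 with reciprocal overlap of 50% (26.9%). The 4 became 10 of 54 without Col-0 replicate 1 (10.9% of all genes) and 7 of 48 without CND1-FLAG replicate 1 (9.28%).

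The strength of the peaks at ABC genes was also close to that of other genes. The best fold per member ran from 1.46 to 3.91 in CND1-FLAG replicate 1, with a median of 1.98 over 40 genes, beside 1.99 over 9806 genes. In replicate 2 the range was 1.49 to 2.70, with a median of 1.896 over 35 genes beside 1.95 over 8305. The Col-0 ranges were 1.47 to 2.49 (replicate 1) and 1.38 to 2.55 (replicate 2), with medians of 1.71 and 1.59 beside 1.68 and 1.67. A best fold of at least 2 was reached by 20 of the 40 members, or 50%, in CND1-FLAG replicate 1 (48.7% of all its genes) and by 13 of 35, or 37.1%, in replicate 2 (44.4%). It was reached by 4 of 16 members in Col-0 replicate 1 (13.6% of all its genes) and by 3 of 28 in Col-0 replicate 2 (13.9%).

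**Figure D2:**
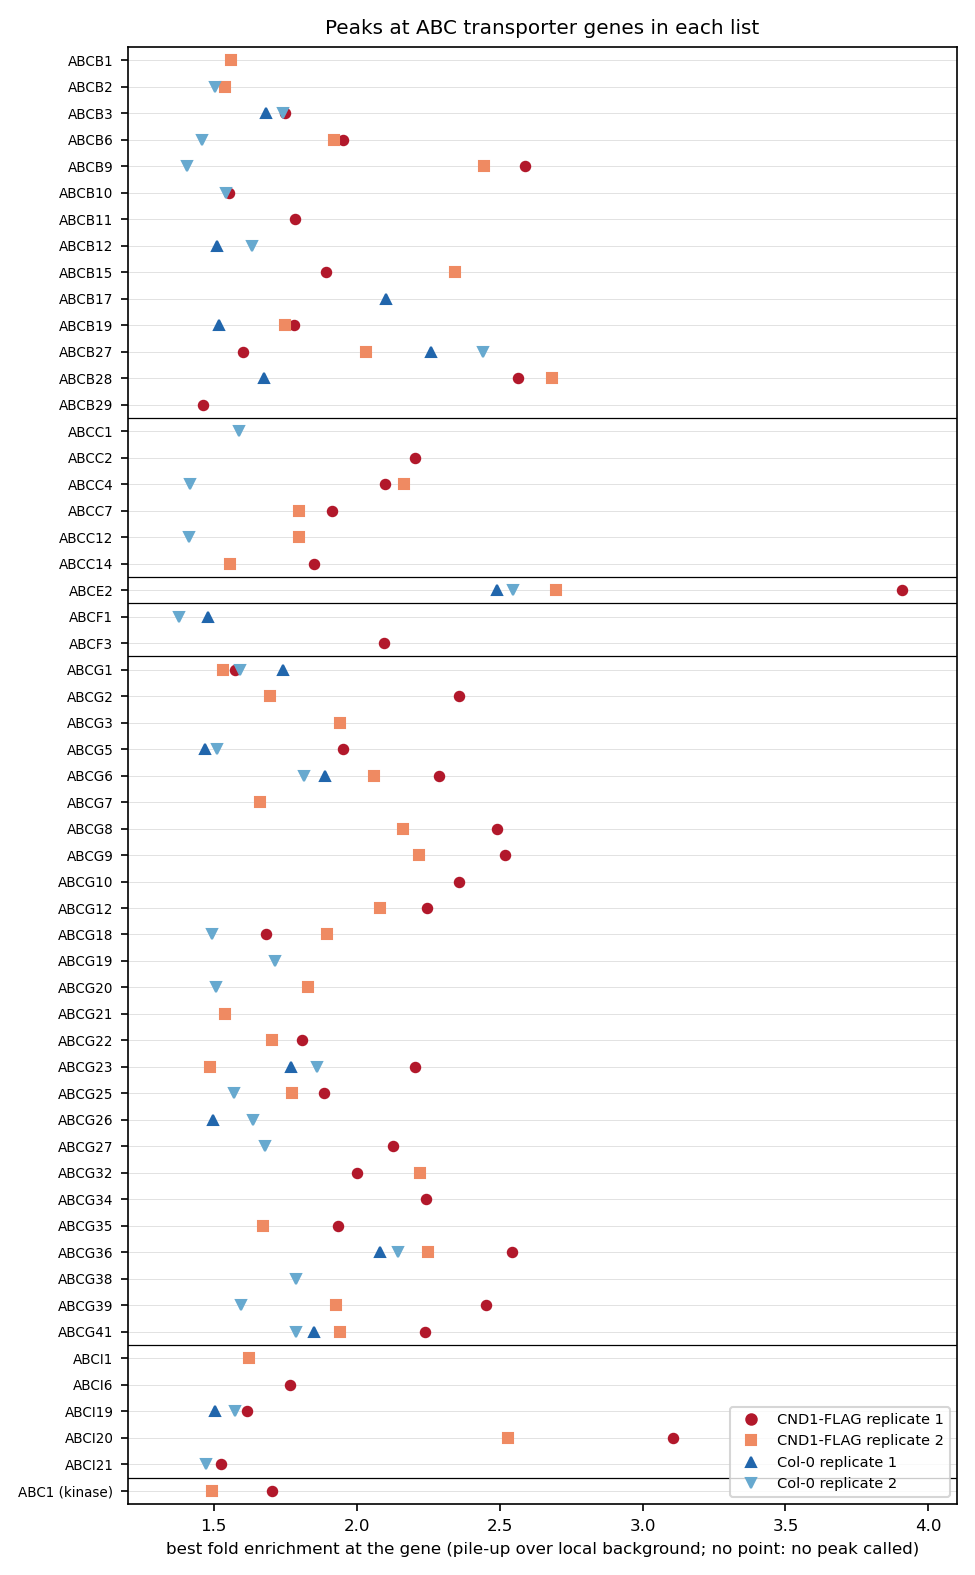
Best fold enrichment at each of the 55 members (horizontal axis) in each of the 4 lists (symbols), with subfamilies set apart by lines and no symbol where no peak was called. ABCE2 stands furthest right at 3.91 in CND1-FLAG replicate 1, followed by ABCI20 at 3.11. Positions along the axis are not comparable between tagged and Col-0 lists, which differ in depth and may differ in input.

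By subfamily, the share of genes with a peak in any list is read beside the 41.5% of all protein-coding nuclear genes. The share of members with a region of both tagged lists is read beside the 56% of all nuclear genes with a peak. Subfamily G, with 43 genes in the RefSeq table, had 26 members, or 60.5%, and 15 of them had a region of both tagged lists. Subfamily B had 14 of 28 genes as members, 6 of them with such a region, and subfamily C had 6 of 15, 4 of them with one. Subfamily I had 7 of 19 genes with a peak, 5 of them members, subfamily F 2 of 5 and subfamily E 1 of 3. None of the 12 genes of subfamily A had a peak in any list. The difference between subfamilies was not tested.

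The strongest tagged-specific region lay in ABCI20 (AT5G02270), a soluble ATP-binding protein of bacterial type (chromosome 5, 467195 to 467608, TAIR10). Its fold was 3.11 (2.54 to 3.76) in CND1-FLAG replicate 1, from 103 fragments where 32.5 were expected, and 2.53 (1.998 to 3.16) in replicate 2, from 75 where 29.03 were expected. It sits inside the gene, with summits 1722 and 1713 bp downstream of the start. No Col-0 peak was called at this site. ABCI19 (AT1G03905) and ABCI21 (AT5G44110), known to form a complex with ABCI20, had no tagged-specific region. ABCI19 had a region of both Col-0 lists and CND1-FLAG replicate 1 with folds of 1.504, 1.57 and 1.62. ABCI21 had 1.53 in CND1-FLAG replicate 1 and 1.47 in Col-0 replicate 2, in a region over the neighbouring gene CRA1, which encodes a seed storage protein and to which CND1-FLAG replicate 2 assigned its peak.

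ABCE2 (AT4G19210) was assigned the highest fold of all members, though in a region that does not overlap it, and had 4 regions. It is the plant form of the ABCE ATPase that splits ribosomes after translation in yeast and animals. A tagged-specific region covered its start (chromosome 4, 10501018 to 10501392), with a fold of 2.32 (1.84 to 2.89) and 2.22 (1.74 to 2.80) in CND1-FLAG replicates 1 and 2. A shared region lay in the gene body, 1972 and 1975 bp from the start, with 2.56 and 2.70 in the tagged lists and 1.79 in Col-0 replicate 2. The highest fold, 3.91 in CND1-FLAG replicate 1, came from a region upstream that all 4 lists held and that Col-0 gave at 2.49 and 2.55. That region overlaps the neighbour AT4G19200 and not ABCE2, and CND1-FLAG replicate 2 assigned its peak to that neighbour. Without it the best fold of ABCE2 in replicate 1 is 2.56.

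Among the B subfamily, ABCB9 (AT4G18050) had the strongest tagged-specific region. It covered the gene start (chromosome 4, 10022108 to 10022522) with a fold of 2.59 (2.06 to 3.22) and 2.45 (1.91 to 3.09), from 79 and 69 fragments. Its summits lay at 110 and 111 bp downstream of the start, so both libraries placed it at the same point. A separate peak of Col-0 replicate 2, of fold 1.41, lay 2025 bp into the gene. ABCB6 (AT2G39480) had 1.95 (1.58 to 2.38) and 1.92 (1.54 to 2.37), with summits 387 and 373 bp downstream. It too had a separate peak of Col-0 replicate 2, of fold 1.46, which lay 3497 bp into the gene. ABCB15 (AT3G28345) had 1.89 (1.45 to 2.42) and 2.34 (1.83 to 2.96) in its last exon, 7 of 7. ABCB15 belongs to a cluster of similar neighbouring genes, and the placing of reads that match several copies is not stated.

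Of the 6 listed auxin genes, 3 had a peak, and of these only ABCG36 had a tagged-specific region. Over all nuclear genes with a peak that share was 29.3%. ABCB19 (AT3G28860), an exporter of auxin, had a shared region at the end of the gene with 1.78 and 1.75 in the tagged lists and 1.52 in Col-0 replicate 1. ABCB1 (AT2G36910), which acts with it, had 1.56 in CND1-FLAG replicate 2 alone, in exon 8 of 10. ABCG36 (AT1G59870), also PEN3, works in defence at the cell surface and exports an auxin precursor, and it had both kinds of region. The tagged-specific one (chromosome 1, 22034647 to 22035016) had 2.05 (1.62 to 2.55) and 2.25 (1.77 to 2.82), with summits 451 and 404 bp downstream of the start. The shared one, further into the gene, had 2.54 and 2.25 with the tag and 2.08 and 2.15 in Col-0. The remaining 3 of the 6 listed auxin genes, ABCB4, ABCB21 and ABCG37, had no peak. ABCG35 (AT1G15210), the closest relative of ABCG36, had a tagged-specific region with 1.94 (1.54 to 2.40) and 1.67 (1.29 to 2.14), at 611 and 602 bp.

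Shares in the role lists are read beside the 41.5% of all protein-coding nuclear genes with a peak. A peak was found at 7 of 10 surface lipid genes, 3 of 6 auxin genes and 3 of 5 genes listed as vacuolar. It was found at 2 of 5 abscisic acid genes and 4 of 10 organelle genes. The listed surface lipid genes are all of subfamily G, in which 60.5% of genes had a peak. All 3 listed soluble translation proteins had a peak. All role lists were chosen with earlier results known, and the translation list leaves out other genes of subfamilies E and F. Of these subfamilies as a whole, 1 of 3 and 2 of 5 genes had a peak. Among transporters of surface lipids, several had regions of both tagged lists. ABCG12 (AT1G51500), also CER5, which exports cuticular wax, had a tagged-specific region near its start (chromosome 1, 19100674 to 19101109). Its fold was 2.25 (1.84 to 2.72) and 2.08 (1.66 to 2.58), from 103 and 81 fragments. ABCG2 (AT2G37360), of the suberin group, had 2.36 (1.89 to 2.91) and 1.70 (1.30 to 2.19). The other suberin genes had regions that Col-0 shared. ABCG6 (AT5G13580) had 2.29 and 2.06 with the tag and 1.89 and 1.81 in Col-0. ABCG20 (AT3G53510) had 1.83 in CND1-FLAG replicate 2 and 1.51 in Col-0 replicate 2, in a region whose peak in CND1-FLAG replicate 1 was assigned to the neighbour AT3G53500. ABCG1 (AT2G39350) was at 1.57 and 1.53 with the tag and at 1.74 and 1.59 in Col-0, values of lists that differ in depth. ABCG32 (AT2G26910), which exports cutin precursors, had 1 peak in each tagged list at different places, 2.001 and 2.22, with summits 1270 and 322 bp into the gene. ABCG26 (AT3G13220), which exports the precursors of the pollen wall, had a region of both Col-0 lists alone with 1.497 and 1.64. ABCG11, ABCG13 and ABCG16 had no peak.

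Other G subfamily members also had tagged-specific regions. ABCG9 (AT4G27420), known for the pollen coat, had 2.52 (1.97 to 3.17) and 2.22 (1.69 to 2.86) at 13714071 to 13714467 on chromosome 4. Its pile-up in replicate 2, 57 fragments over 25.2 expected, was the smallest of the 16 regions. ABCG8 (AT5G52860) had 2.49 (2.05 to 2.996) and 2.16 (1.75 to 2.64) at 21421143 to 21421643 on chromosome 5, from 110 and 94 fragments, the largest pile-ups among the 16. The summits lay 317 and 325 bp downstream of its start. ABCG39 (AT1G66950) and ABCG41 (AT4G15215), of the pleiotropic drug resistance type, had shared regions. ABCG39 had 2.45 and 1.93 in the tagged lists and 1.596 in Col-0 replicate 2, and ABCG41 had 2.24 and 1.94 with the tag and 1.85 and 1.79 in Col-0.

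Abscisic acid genes had a peak in 2 of 5 cases, beside the same 41.5%. ABCG22 (AT5G06530), which limits water loss through stomata, had a tagged-specific region with 1.81 (1.48 to 2.19) and 1.70 (1.37 to 2.097), at 425 and 402 bp downstream of the start. ABCG25 (AT1G71960), which exports abscisic acid from its sites of synthesis, had a shared region with 1.89 and 1.77 in the tagged lists and 1.57 in Col-0 replicate 2. The importer ABCG40, and ABCG30 and ABCG31, had no peak.

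Among the C subfamily, some members of which load conjugates and chelates into the vacuole, ABCC4 (AT2G47800), ABCC7 (AT3G13100) and ABCC14 (AT3G62700) had tagged-specific regions. ABCC4 had 2.097 (1.68 to 2.58) and 1.73 (1.33 to 2.20) at 650 and 623 bp into the gene, and a further peak of 2.17 in CND1-FLAG replicate 2 overlapped one of 1.42 in Col-0 replicate 2. ABCC7 had 1.91 (1.57 to 2.32) and 1.799 (1.44 to 2.22) upstream of the start, at −625 and −586 bp, in a region that does not touch the gene. ABCC14 had the weakest of the 16 in replicate 1, with 1.57 (1.24 to 1.95) and 1.56 (1.22 to 1.97), and its summits lay 86 bp apart, the widest gap. ABCC2 (AT2G34660), which stores phytochelatin complexes together with ABCC1, had 2.21 in CND1-FLAG replicate 1 alone, upstream at −2061 bp from the start. ABCC1 (AT1G30400) owes its place to a peak of 1.59 in Col-0 replicate 2, upstream at −2490 bp, in a region whose tagged peaks were assigned to AT1G30380. ABCC3 and ABCC5 had no peak.

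Of the 10 listed genes of organelle transport and cofactor assembly, 4 had a peak, a share close to the 41.5% of all protein-coding genes. None of the 4 had a tagged-specific region, beside 29.3% of all nuclear genes with a peak, and the difference was not tested. ABCB27 (AT5G39040), also ALS1, a tonoplast protein needed for aluminium tolerance, had a shared region upstream, with 1.60 (1.25 to 2.02) and 2.03 (1.61 to 2.53) in the tagged lists and 2.26 (1.89 to 2.68) and 2.44 (2.05 to 2.88) in Col-0. The interval of CND1-FLAG replicate 2 overlaps those of both Col-0 lists. That of CND1-FLAG replicate 1 overlaps the interval of Col-0 replicate 1 and not that of Col-0 replicate 2. The folds rest on different depths and on inputs that are not stated, so the difference cannot be read from them. ABCI6 (AT3G10670), the SufC component of plastid iron-sulfur cluster assembly, had 1.77 in CND1-FLAG replicate 1 alone. ABCI14 and ABCI15, components of the plastid lipid importer whose descriptions do not name an ABC transporter, are not members. ABCI15 (AT3G20320) had 2.83 and 3.25 with the tag and 1.75 and 1.76 in Col-0, and ABCI14 (AT1G19800) had 2.72 in CND1-FLAG replicate 1 alone. ABCB28 (AT4G25450), outside that list, had a shared region over its start (chromosome 4, 13012912 to 13014090) with 2.57 and 2.68 in the tagged lists and 1.68 in Col-0 replicate 1. The mitochondrial ABC1 had 1.70 (1.37 to 2.09) and 1.49 (1.18 to 1.87), the lowest fold of replicate 2 among the 16 regions.

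**Figure D3:**
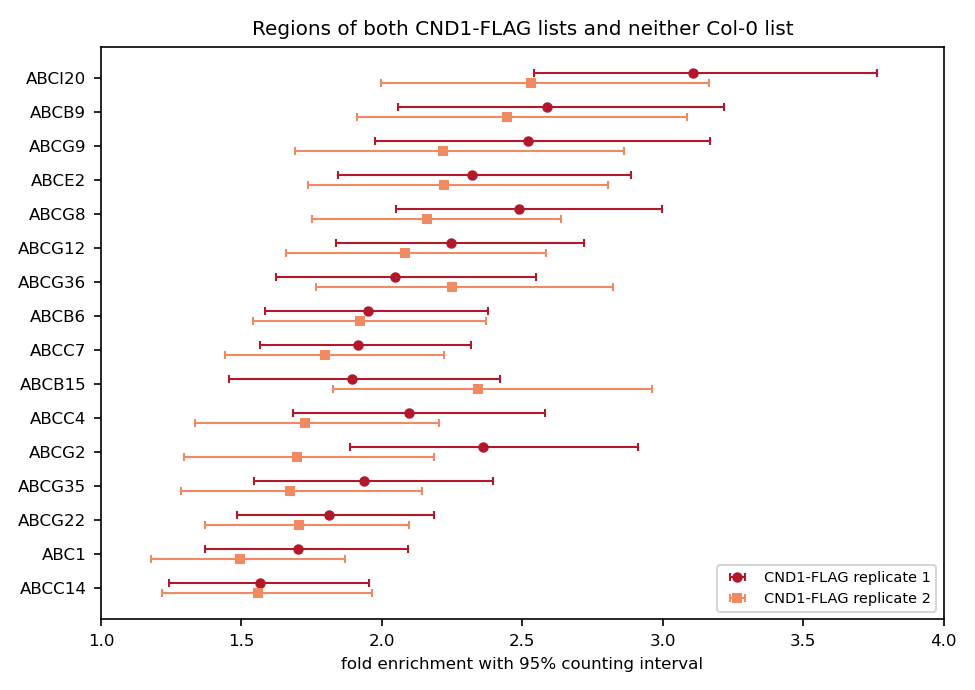
Fold enrichment (horizontal axis) of the 16 tagged-specific regions in CND1-FLAG replicates 1 and 2, with 95% counting intervals and ordered by the worse rank in the lists. The folds spanned 1.57 to 3.11 (replicate 1) and 1.49 to 2.53 (replicate 2).

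All 16 regions were called in both tagged lists by definition, and their folds spanned 1.57 to 3.11 (replicate 1) and 1.49 to 2.53 (replicate 2). Replicate 1 was the higher at 14 of the 16, beside 54.9% of all 4011 nuclear tagged-specific regions. The summits of both lists lay within 50 bp of each other at 14 of the 16, with a median gap of 22.5 bp, beside 63.5% and a median of 34 bp over all tagged-specific regions. A fold of at least 2 in both lists was reached by 7 of the 16, beside 28.9%. Col-0 signal below the calling threshold was not measured. Col-0 summits with −log10 q under 1.5 had folds of 1.25 to 1.48 (replicate 1) and 1.1996 to 1.48 (replicate 2), so a site without a call may still hold signal of that order. Those folds cannot be set against the tagged ones, since depth differs and the input of the calls is not stated.

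**Figure D4:**
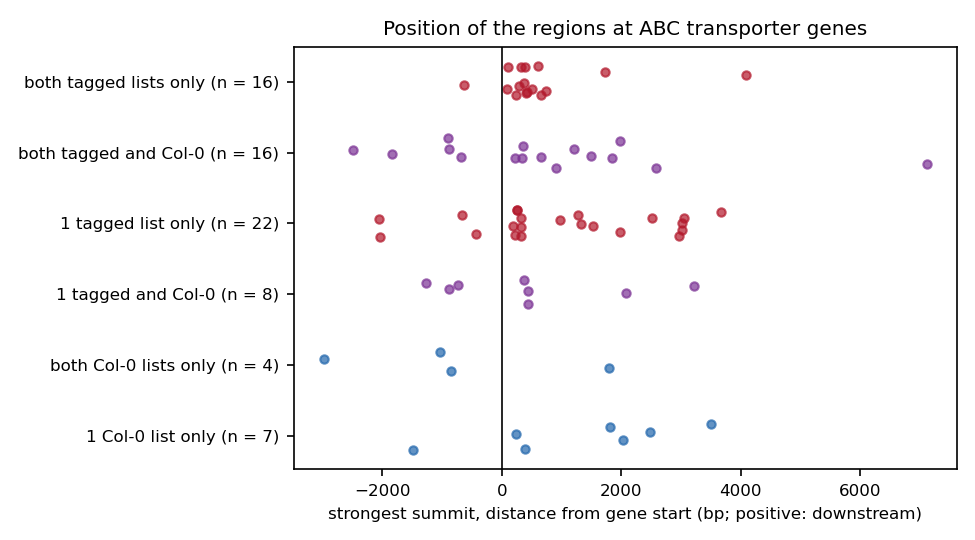
Distance of the strongest summit of each of the 73 member regions from the start of its gene (horizontal axis, bp, positive downstream), by the lists that held the region (rows). The 16 tagged-specific regions gather within 1 kb downstream, with 1 upstream and 2 beyond 1 kb, while regions of Col-0 alone spread over both sides.

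Tagged-specific regions lay mostly in the first transcribed kilobase. Both summits were downstream of the gene start at 15 of 16, beside 76.5% of all nuclear tagged-specific regions. By the strongest tagged peak, 14 of 16, or 87.5%, lay within 1 kb of the start (71.4% of all), with a median summit at 395.5 bp downstream (357 bp over all). Of the 16 shared member regions, 15 had a tagged peak assigned to the member, and 9 of these, or 60%, lay within 1 kb of the start, beside 68.1% of all shared regions, and their summits had a median of 653 bp beside 478.5 bp. The gene start itself was covered by 2 of the 16, at ABCB9 and ABCE2, and by 2 of the 15, beside 15.8% and 12.6%. The assigned gene was overlapped by 15 of the 16, with ABCC7 the exception, and by 55 of all 73 member regions.

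Some members had a strong region in just 1 tagged list. There were 14 such regions in CND1-FLAG replicate 1 and 8 in replicate 2. A −log10 q of at least 8 was reached by 4 of the 14 (21.3% of all nuclear regions of that list alone) and by 1 of the 8 (11.8%). Those of replicate 1 were at ABCG10 (AT1G53270) with 2.36 (1.89 to 2.91), ABCG34 (AT2G36380), an exporter of the phytoalexin camalexin, with 2.24 (1.83 to 2.73), ABCC2 with 2.21 (1.80 to 2.67) and ABCF3 (AT1G64550), related to yeast GCN20, with 2.095 (1.70 to 2.55). That of replicate 2 was at ABCG32 with 2.22 (1.80 to 2.71). ABCG10 and ABCG34 were named after their values were seen. In replicate 2 summits with −log10 q under 1.5 had folds of up to 1.57.

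Few members were in the reverse class. Besides ABCG26, both Col-0 lists alone held regions at ABCB12 (AT1G02530), with 1.51 and 1.63 over the neighbour ABCB11, at ABCF1 (AT5G60790), a soluble F subfamily protein, with 1.48 and 1.38, and at ABCG23 (AT5G19410), with 1.56 and 1.55 upstream. No fold of this class passed 1.64. ABCG23 also had a region of all 4 lists, with 2.20 and 1.49 with the tag and 1.77 and 1.71 in Col-0.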

How the data were processed

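Anti-FLAG ChIP-seq of 2 CND1-FLAG and 2 Col-0 libraries was analysed from the deposited peak lists. Per the submitters' processing notes, the tools were fastp 0.19.11, BWA 0.7.12 and MACS2 2.1.0, with TAIR10. Neither threshold nor input of the calls is stated, and −log10 q began at 1.30 in each list. The deposited fold is a ratio of summit to local background, per the file headers. P and q values were deposited as −log10. The deposited score is a whole-number score and was not used. The authors' annotation gives each summit 1 gene, and promoter there means within 3 kb of a start.

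Lines with equal start and end were joined to the summit of highest fold, and peaks sharing 1 bp were merged to regions. A gene took every region with a peak assigned to it in any list. Pile-up and background were solved from fold and p-value. The pile-ups came out whole within 0.02 fragments for 300 of 300 summits of each tagged list. With 1 scale per Col-0 list, 0.723 and 0.739, they did so for 100 of 100 held-out summits each. Distances to starts are of summits. Gene overlap used the gene positions in the deposited lists. Names came from the RefSeq table of TAIR10.1, which held all 12573 genes.

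The members and gene lists were chosen with earlier results of these data known. Named were all members with a tagged-specific region, the 6 best-ranked shared ones, up to 4 of the Col-0 class and the members of 6 role lists, 35 genes in all. Outside this rule, ABCI19, ABCI21, ABCI14, ABCI15, ABCG34 and ABCG10 were picked with their values in view. No test was made over members. Steps were checked on simulated data. Python 3.11.15, pandas 2.3.3 and SciPy 1.17.1 were used. No sequences were used here.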

Additional observations from a re-analysis of the deposited data

How the results depend on the processing

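Stricter lists shortened every class. With −log10 q of at least 5 there were 10 tagged-specific, 4 shared and 0 Col-0 members, with fold of at least 2 there were 9, 2 and 0, and in the top 50% of each list 9, 5 and 1, out of 34, 23 and 31 members with a peak left. Of all nuclear genes with a peak left, 30.1%, 33.2% and 23.9% had a tagged-specific region. A shared region was found at 14.7%, 8.39% and 15.3% of them, and one of the Col-0 class at 2.19%, 1.2% and 6.03%. The named genes that kept their class numbered 14, 10 and 14 of 35. The median fold in the tagged lists was then 2.21 and 2.17, 2.32 and 2.22, and 2.25 and 2.17, by construction. Shared members numbered 8 of 55 with reciprocal overlap of 50%, beside 26.9% of all genes. With peaks within 1 kb of the start there were 9 shared and 1 Col-0 members of 39, beside 27.8% and 3.28% of all genes. The median in replicate 1 was then 2.05, and it was also 2.05 with the wider choice of members. Leaving out each library gave 18 to 26 tagged-specific, 9 to 19 shared and 4 to 10 Col-0 members. Over all genes with a peak the shares were 35.3% to 53.7%, 25.3% to 40.4% and 6.42% to 11.9%. The difference was then 9.5 to 21.5 genes with a peak, and 30 to 33 named genes kept their class. ABCG8, ABCG9 and ABCG12 kept theirs under all 13 alternatives. Leaving out a library or widening the choice of members could not take the class from a tagged-specific gene, so those alternatives did not test it. Requiring that all peaks of a region name 1 gene, an alternative chosen after seeing the data, gave 16, 12 and 4 of 52 members. Of all genes the shares were 29.6%, 28.5% and 4.37%. The labels do not state whether the numbers 1 and 2 pair the libraries. Deviations of same-numbered libraries had a correlation of −0.024 over 2426 regions of all 4 lists. That value cannot show whether libraries were processed in pairs. With a replicate block the difference was 15.5 genes, exact permutation p = 0.5, the smallest that 2 pairs allow. Fragments at summits of the 16 regions numbered 57 to 110, which sets the width of the intervals.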
